A study of Mus musculus with 15 samples.

Results

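The 10 genes described here encode acute phase proteins whose expression was read in ear skin: A2m, Serpina3n, Cp, Orm1, Hp, C3, Lbp, Saa3, Saa1 and Saa2. They were picked by symbol from the 21110 genes with an expression value, as acute phase genes that STAT3 is known to drive and that were expressed outside the liver, and all 10 symbols were found. They were chosen with their levels in the 4 groups of mice in view, so the differences between groups are given for these genes as a description, without a test. Tests are given for related genes on lists, which were also drawn up with earlier results of these data known.

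Ear RNA of wild type (WT, C57BL/6) mice and of mice lacking Socs3 in keratinocytes (Socs3 cKO) was sequenced at 2 and 10 weeks of age. There were 4 WT and 4 Socs3 cKO mice at 2 weeks, and 3 WT and 4 Socs3 cKO mice at 10 weeks, with 1 library each. The deletion was driven by a Cre recombinase under the keratin 5 promoter, which is active in the basal cells of the epidermis and its appendages, so the other cells of the ear keep the gene. The labels give the tissue as ear and the source as keratinocytes. Summed keratinocyte markers reached 4750 to 11590 FPKM (fragments per length of transcript and per mapped read), but fibroblast markers reached 4003 to 15120 FPKM and skeletal muscle markers 332.9 to 2802 FPKM, so the libraries hold the RNA of whole ear tissue.

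The acute phase response is the change in plasma proteins that follows injury or infection. Interleukin 6 and its relatives act through gp130, JAK kinases and STAT3 on hepatocytes, and interleukin 1 and tumour necrosis factor add NF-kB and C/EBP factors. SOCS3 is itself induced by STAT3 and ends the signal by binding gp130 and JAK. Skin can make several of the same proteins: protease inhibitors, metal and haem carriers, complement and lipid-binding proteins.

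Before the values, some libraries stood apart. Mapped reads were not given and were estimated at 11600000 to 16600000 per library. Among 500 genes that were at 0 in most libraries, 250 to 440 had a value above 0 in the WT libraries at 10 weeks and 34 to 55 in all other libraries, so low values in WT mice at 10 weeks are less certain. In Socs3 cKO replicate 1 at 2 weeks and in the WT libraries at 10 weeks long transcripts were low against short ones, with a median difference of -0.85 for the former and of -0.94 to -0.23 for the latter on the log2 scale, whereas WT libraries at 2 weeks lay between 0.37 and 0.61. Socs3 cKO replicate 3 at 2 weeks (-0.36) and replicate 4 at 10 weeks (-0.36) were also low, within the range of the WT libraries at 10 weeks. The 4 WT libraries at 2 weeks were close to each other: over genes of 50 to 500 estimated reads, pairs of them differed by 1.48 to 2.59 times what counting noise gives, against 3.63 to 73.6 times in the other groups. The labels do not say whether they came from separate animals, and all p-values measure only the spread between these libraries. Each group has its own range of library numbers, so batch and condition cannot be told apart.

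Socs3 itself did not separate the genotypes at 2 weeks. Its FPKM was 9.71, 10.2, 10.3 and 10.3 in WT and 1.25, 9.32, 12.6 and 3.51 in Socs3 cKO (limma, log2(FC) -1.06, SE 0.63, Benjamini-Hochberg adjusted p = 0.18). At 10 weeks Socs3 was higher in Socs3 cKO, at 36.61 ± 7.9 FPKM (SD, n = 4) against 3.2 ± 1.45 (n = 3), with a log2(FC) of 3.54 (adjusted p = 7.2e-05). Socs3 RNA of whole ear therefore went against the label at 10 weeks and did not check it at 2 weeks, and Socs3 cKO below means the libraries labelled so.

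The upstream sequences of the members are shown because several of these genes moved together. RefSeq start sites (GRCm38.p6) were at hand for Serpina3n, Cp, C3, Saa3, Saa1 and Saa2. The 250 bases before each start, 5′ to 3′ on the strand of the gene, were found once on the same chromosome of mm9, the build of the files, and the positions below are those of mm9. Capitals mark matches on either strand to 4 short motifs: TTCNNNGAA (STAT), CTGGGAA (the type II element of genes that respond to interleukin 6), TTGCNNAA (C/EBP) and GGNNTTTCC (a part of the NF-kB site). No match below overlaps another.
Serpina3n (chr12:105644668-105644917, plus strand): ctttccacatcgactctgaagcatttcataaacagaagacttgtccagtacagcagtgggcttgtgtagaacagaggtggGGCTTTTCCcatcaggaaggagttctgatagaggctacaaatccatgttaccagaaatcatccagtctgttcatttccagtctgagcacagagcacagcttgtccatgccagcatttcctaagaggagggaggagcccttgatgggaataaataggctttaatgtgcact
Cp (chr3:19856804-19857053, plus strand): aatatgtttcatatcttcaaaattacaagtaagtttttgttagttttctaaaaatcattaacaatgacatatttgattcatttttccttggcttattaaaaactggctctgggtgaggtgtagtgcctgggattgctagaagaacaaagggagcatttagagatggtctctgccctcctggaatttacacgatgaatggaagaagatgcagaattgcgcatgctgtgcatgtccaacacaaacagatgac
C3 (chr17:57367560-57367809, minus strand): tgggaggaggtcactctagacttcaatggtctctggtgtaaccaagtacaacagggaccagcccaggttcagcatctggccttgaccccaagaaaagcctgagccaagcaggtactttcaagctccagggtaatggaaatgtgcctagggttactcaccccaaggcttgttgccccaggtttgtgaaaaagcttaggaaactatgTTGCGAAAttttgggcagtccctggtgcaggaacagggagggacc
Saa3 (chr7:53971047-53971296, minus strand): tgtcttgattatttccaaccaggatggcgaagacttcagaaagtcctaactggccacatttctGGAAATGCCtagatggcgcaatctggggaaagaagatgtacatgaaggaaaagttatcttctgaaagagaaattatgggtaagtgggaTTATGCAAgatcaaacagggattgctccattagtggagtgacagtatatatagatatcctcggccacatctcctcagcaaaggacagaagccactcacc
Saa1 (chr7:53998351-53998600, minus strand): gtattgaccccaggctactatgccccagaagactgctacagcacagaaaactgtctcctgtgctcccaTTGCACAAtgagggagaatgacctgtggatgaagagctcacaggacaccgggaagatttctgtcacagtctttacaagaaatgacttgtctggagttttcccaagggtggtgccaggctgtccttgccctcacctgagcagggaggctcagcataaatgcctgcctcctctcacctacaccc
Saa2 (chr7:54006953-54007202, plus strand): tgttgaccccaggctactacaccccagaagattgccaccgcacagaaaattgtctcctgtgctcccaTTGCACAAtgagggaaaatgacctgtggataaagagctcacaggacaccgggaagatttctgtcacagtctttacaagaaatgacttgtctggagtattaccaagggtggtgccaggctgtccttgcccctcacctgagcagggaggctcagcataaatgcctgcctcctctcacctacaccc

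Serpina3n held 1 NF-kB match, GGCTTTTCC, 170 to 162 bases before its start. C3, Saa3, Saa1 and Saa2 each held 1 C/EBP match, and Saa3 also held an NF-kB match, GGAAATGCC on the other strand, 187 to 179 bases before its start. Cp has a pair of RefSeq starts. The window of the first, shown above, held no match. The window of the second, which runs into the first transcript and is not printed, held 1 C/EBP match, TTTTGCAA, 70 to 63 bases before that start, and 1 NF-kB match, GGTTTTTCC, 146 to 138 bases before it. No window held a match to the STAT or the type II letters. Of 32851 windows of the same length, 7.02% held the STAT letters, 9.1% the type II letters, 9.56% the C/EBP letters and 4.93% the NF-kB letters. A match describes letters in this window only, and a window without one says nothing about a factor. The Saa1 and Saa2 windows, which face away from each other on chromosome 7, differed by 13 edits and shared a run of 65 bases.

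At 2 weeks the largest differences were those of the protease inhibitors A2m and Serpina3n. A2m (chromosome 6, 121586191 to 121629255, plus strand, 36 exons in GENCODE) encodes alpha-2-macroglobulin, which traps proteases of many classes. At 2 weeks its FPKM was 0.525, 1.1, 1.27 and 0.624 in WT and 26.3, 29.9, 31.7 and 18 in Socs3 cKO, so the groups did not come near each other. The means were 0.881 ± 0.363 and 26.48 ± 6.09 (SD, n = 4 each), a log2(FC) of 4.81 (SE 0.30), or 28-fold. At 10 weeks WT mice had 3.5, 5.64 and 2.9 FPKM and Socs3 cKO mice 21.3, 9.2, 13.9 and 13.9, again apart, with a log2(FC) of 1.83 (SE 0.31). The smaller difference at 10 weeks had both a higher WT level, 4.26-fold above WT at 2 weeks on the log2(FPKM + 0.1) scale, and a Socs3 cKO level 1.85-fold under that at 2 weeks, where the groups overlapped. The order of the levels was Socs3 cKO at 2 weeks, Socs3 cKO at 10 weeks, WT at 10 weeks and WT at 2 weeks, and among neighbours only the Socs3 cKO groups overlapped.

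Serpina3n (chromosome 12, 105644939 to 105652539, plus strand) is a serine protease inhibitor of the clade that includes human antichymotrypsin. At 2 weeks its FPKM was 6.42, 8.28, 8.58 and 7.67 in WT and 67.8, 51.6, 71.9 and 96.4 in Socs3 cKO. WT mice had 8.9, 11.6 and 12.3 at 10 weeks, and Socs3 cKO mice 45.8, 31.1, 55 and 43. The genotypes were apart at both ages, by a log2(FC) of 3.17 (SE 0.20) and 1.98 (SE 0.22). The order of the groups was that of A2m, and again only the Socs3 cKO groups overlapped among neighbours. Of the 50-base words of its transcript, 6.75% also occur in other Serpina3 genes, so a small part of the reads could belong to these paralogs.

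Cp and Hp act on metal and haem. Cp (chromosome 3, 19857054 to 19909145, plus strand, 22 exons) encodes ceruloplasmin, the copper-bearing ferroxidase that loads iron onto transferrin. Its FPKM at 2 weeks was 3.64, 3.91, 3.77 and 3.73 in WT and 23.9, 13.1, 21.2 and 16.3 in Socs3 cKO. The older WT mice had 3.78, 6.64 and 2.67, against 19.5, 13.1, 12.1 and 19.3 in Socs3 cKO. Cp thus kept one low level in WT and one high level in Socs3 cKO: the groups of each genotype overlapped between ages, the genotypes did not, and log2(FC) was 2.24 (SE 0.20) and 1.92 (SE 0.31). Exons of Cp overlap those of Hps3 on the other strand, and reads without strand cannot be told apart there.

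Hp (chromosome 8, 112099030 to 112103072, minus strand) encodes haptoglobin, which binds free haemoglobin and, besides the liver, is known from adipose tissue. Its FPKM at 2 weeks was 12.8, 10.9, 12.7 and 11.8 in WT and 15.9, 55.5, 40.3 and 90.5 in Socs3 cKO. By 10 weeks WT mice had 13.4, 17.1 and 15.6, against 91.7, 52.5, 56.6 and 36.1 in Socs3 cKO. No Socs3 cKO mouse fell among the WT mice of its age, but Socs3 cKO replicate 1 at 2 weeks, the library that stood apart, was close to them. The log2(FC) was 1.81 (SE 0.46) at 2 weeks, 2.28 without that library, and 1.87 (SE 0.28) at 10 weeks.

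Adipocyte genes also varied among Socs3 cKO mice. At 2 weeks Adipoq, the adipocyte hormone adiponectin, had 11.6, 23, 23.1 and 55.9 FPKM in Socs3 cKO replicates 1 to 4, the lowest and the highest mouse being the same as for Hp. At 10 weeks it had 52.1, 37.9, 26.8 and 52.8, and there the mouse lowest for Hp was the highest for Adipoq. Summed over 7 adipocyte markers, WT mice had 227.9 to 263.8 FPKM at 2 weeks and Socs3 cKO mice 381.6 to 736.4. The ranges met at 10 weeks, with 311.6 to 438.2 in the former and 385.4 to 734.3 in the latter. At 2 weeks the sum was highest in Socs3 cKO replicate 4, like Hp, but lowest in replicate 2, with 448.7 in replicate 1. It was mostly Fabp4, at 317.7 to 600.9 in Socs3 cKO, while Plin1, Cidec, Lep and Lipe overlapped WT. One marker of these 7 passed the test at each age, Retn (log2(FC) 2.98, adjusted p = 0.00202) at 2 weeks and Lep (log2(FC) 2.29, adjusted p = 0.00138) at 10 weeks. The part of adipocyte RNA in the Hp values was not tested. In whole tissue, more cells of a type and more RNA per cell cannot be told apart.

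Orm1 (chromosome 4, 63005594 to 63009197, plus strand) encodes orosomucoid, a lipocalin that carries lipids and drugs in plasma. It had the highest FPKM of the 10 genes in every group. At 2 weeks it was 57.6, 47.1, 40.2 and 52.9 in WT and 427, 202, 340 and 304 in Socs3 cKO, a log2(FC) of 2.65 (SE 0.23). WT mice had 223, 115 and 103 at 10 weeks and Socs3 cKO mice 140, 159, 141 and 234, and the groups overlapped, with a log2(FC) of 0.25 (SE 0.29). WT mice at 10 weeks were all above WT mice at 2 weeks, by 2.82-fold, whereas the Socs3 cKO groups overlapped between the ages, with a mean of 318.3 ± 93.3 (SD, n = 4) at 2 weeks and 168.9 ± 44.6 (n = 4) at 10 weeks. With length and GC trends removed, the log2(FC) was 1.63 at 2 weeks and 0.77 at 10 weeks. Of its 50-base words, 20.4% are shared with Orm2 and Orm3, so reads of these copies may be split among them.

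C3 (chromosome 17, 57343397 to 57367559, minus strand, 41 exons) is the complement component on which all activation routes meet. At 2 weeks its FPKM was 7.43, 8.98, 9.24 and 8.14 in WT and 3.72, 16.8, 10.9 and 14.1 in Socs3 cKO. These groups overlapped because of Socs3 cKO replicate 1 alone: the log2(FC) was 0.24 (SE 0.42) with it and 0.70 without it, and the other 3 mice were above every WT mouse. Without replicate 2 it was -0.01. At 10 weeks C3 was 12.5, 18.5 and 12.5 in WT and 83.4, 76.5, 48.2 and 37.7 in Socs3 cKO, a log2(FC) of 2.02 (SE 0.29). With length and GC trends removed, the log2(FC) of C3 was 0.91 (SE 0.26) at 2 weeks and 1.75 (SE 0.22) at 10 weeks. The Socs3 cKO mice at 10 weeks were above all mice of the 3 other groups, whose neighbours in the order overlapped.

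Lbp (chromosome 2, 158132229 to 158158588, plus strand) encodes the protein that passes bacterial lipopolysaccharide to CD14. Its FPKM at 2 weeks was 11.5, 15, 15.5 and 13.6 in WT and 13.5, 19.3, 17.7 and 16.9 in Socs3 cKO, overlapping, with a log2(FC) of 0.27 (SE 0.16). Here too Socs3 cKO replicate 1 was the lowest of its group, and without it the groups were apart, with a log2(FC) of 0.38. The older groups had 14.9, 19.3 and 14.9 in WT and 30.9, 22.6, 27.8 and 35 in Socs3 cKO, apart, with a log2(FC) of 0.82 (SE 0.19). Like C3 it was higher in Socs3 cKO at 10 weeks than in any other group, though by less than 2-fold against WT. Summed macrophage markers were apart at both ages. At 2 weeks, when C3 and Lbp overlapped, the sum was 217.9 to 249.4 in WT and 331.8 to 687.4 in Socs3 cKO, and none of 6 markers passed the test. At 10 weeks it was 263.7 to 436.6 and 621.7 to 1050, and 4 of 6 passed (Emr1, Cd68, Csf1r and Mrc1). Their part in C3 and Lbp was not tested.

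The serum amyloid A genes, apolipoproteins that rise steeply in plasma during an acute phase response, were low. Saa3 (chromosome 7, 53967368 to 53971046, minus strand), the member known from tissues outside the liver, had 0, 1.19, 0 and 0.656 FPKM in WT and 1.04, 2.96, 1.09 and 0.998 in Socs3 cKO at 2 weeks. At 10 weeks it had 0.557, 2.6 and 0.939 in WT and 1.3, 1.2, 16.2 and 2.76 in Socs3 cKO. The groups overlapped at both ages, and the mean at 10 weeks in Socs3 cKO, 5.37 ± 7.28 (SD, n = 4), came from replicate 3, with 128 estimated reads against 10.1 to 23.4 in the other 3 mice. The log2(FC) was 2.22 (SE 0.88) at 2 weeks and 1.31 (SE 0.83) at 10 weeks, the latter 0.50 without replicate 3.

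Saa1 (chromosome 7, 53995871 to 53998350, minus strand) rested on 0 to 12.2 estimated reads per library. Its FPKM at 2 weeks was 0.171, 0.0968, 0.291 and 0.555 in WT and 1.5, 1.2, 0.739 and 1.22 in Socs3 cKO, which did not overlap, and at 10 weeks it was 0.301, 0 and 1.07 in WT and 0.451, 0.97, 1.2 and 0.707 in Socs3 cKO, which did. It passed the expression filter (FPKM of at least 1 in at least 3 libraries) at 2 weeks only, through the Socs3 cKO group. Saa2 (chromosome 7, 54007203 to 54009684, plus strand) had at most 0.454 FPKM, or 4.04 estimated reads, in any library and passed at neither age, so no fold is given. Part of the words of Saa1 (10.8%) and Saa2 (9.09%) is shared within the family.

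**Figure D1:**
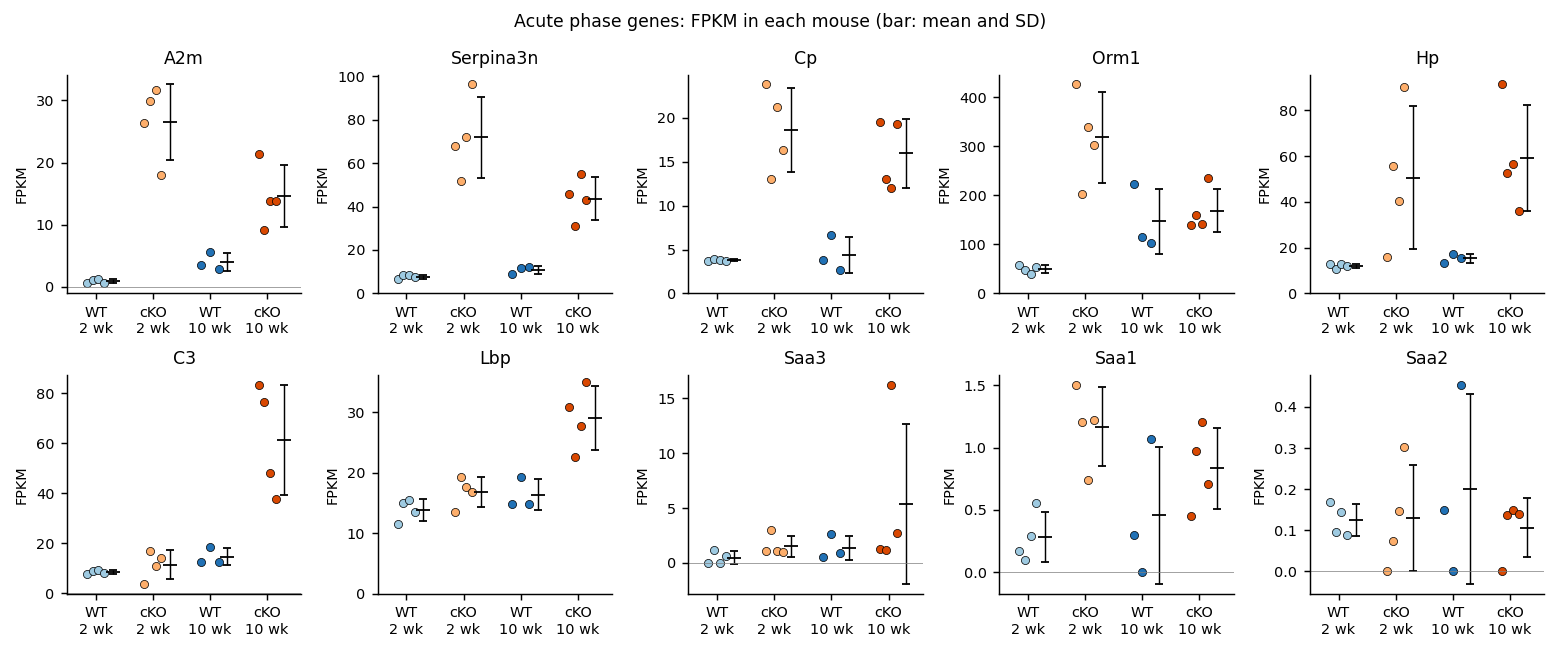
Each panel plots the FPKM of 1 acute phase gene, on its own linear axis, with 1 point per mouse and the mean with SD beside it, for WT and Socs3 cKO (cKO) at 2 and 10 weeks. A2m, Serpina3n and Cp are high in both Socs3 cKO groups, Orm1 in Socs3 cKO at 2 weeks, and C3 and Lbp in Socs3 cKO at 10 weeks, while Saa3 is high in 1 mouse.

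Set side by side, the members fell into several shapes. Of the 10, 6 had every Socs3 cKO mouse above every WT mouse at 2 weeks (A2m, Serpina3n, Cp, Orm1, Hp and Saa1), and 6 at 10 weeks (A2m, Serpina3n, Cp, Hp, C3 and Lbp). None was below. Of all genes that passed the filter, 22.9% were above in this way and 33.2% below at 2 weeks, and 31.2% were above and 11.1% below at 10 weeks. Without Socs3 cKO replicate 1 at 2 weeks the log2(FC) was 4.80 for A2m, 3.19 for Serpina3n, 2.11 for Cp and 2.49 for Orm1. All were still apart from WT. Saa1 was also apart, by 1.73, but without that library it no longer passed the expression filter. The members were chosen on these values, and nothing is read from the counts. A2m, Serpina3n, Cp and Hp were common to both ages. The comparisons at each age use different WT mice.

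All genes tested had a median log2(FC) of -0.21 at 2 weeks and 0.31 at 10 weeks, and this median moved by 0.20 and -0.25 under median-of-ratios scaling. Relative to the median, A2m stood at 5.02, Serpina3n at 3.38, Orm1 at 2.86, Cp at 2.45 and Hp at 2.02 at 2 weeks. At 10 weeks C3 stood at 1.71, Serpina3n at 1.66, Cp at 1.60, Hp at 1.55, A2m at 1.51, Lbp at 0.51 and Orm1 at -0.06. At 2 weeks A2m ranked 5 of 13524 genes by log2(FC), whereas at 10 weeks C3, the highest member, ranked 565 of 13105.

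**Figure D2:**
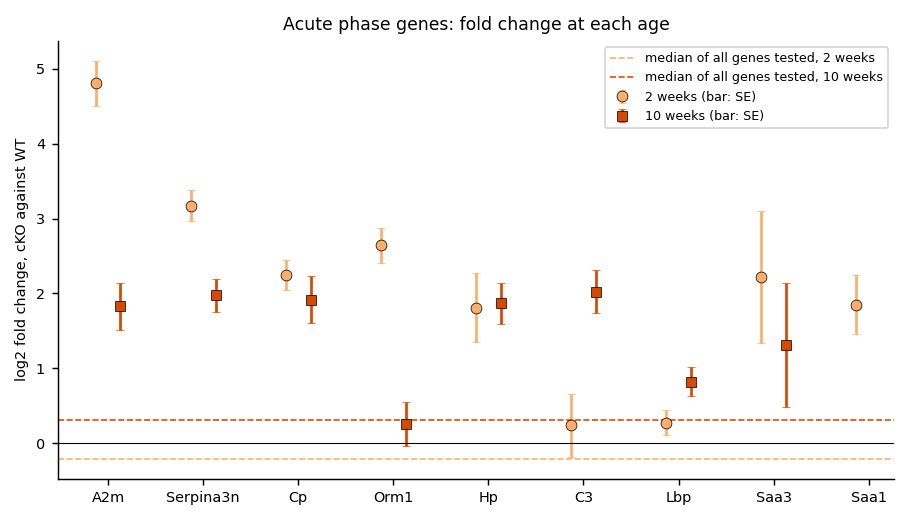
Log2 fold change of Socs3 cKO against WT for 9 acute phase genes (points, with SE) at 2 weeks (circles) and 10 weeks (squares), with the median of all genes tested as dashed lines at -0.21 and 0.31; Saa2 at both ages and Saa1 at 10 weeks did not pass the expression filter and are not drawn. A2m falls from 4.81 to 1.83 and Orm1 from 2.65 to 0.25 between the ages, and C3 goes from 0.24 to 2.02.

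With age in WT mice, 5 members were above in every mouse at 10 weeks (A2m, Serpina3n, Orm1, Hp and C3), where 17.4% of genes passing the filter were above and 50.7% below. With age in Socs3 cKO mice, 2 members, C3 (5.83-fold) and Lbp (1.72-fold), were above, where 7.94% of genes were above and 6.94% below. No member was below in either comparison.

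Hepatocyte RNA was at or near 0. A set of 10 defining hepatocyte genes summed to 0.871 to 3.01 FPKM per library, none passed the filter, and the highest single value was 1.49 FPKM for Alb, albumin, in Socs3 cKO at 10 weeks. Cyp3a11 was above 0 only among WT libraries at 10 weeks, where it ranged from 0 to 0.141 FPKM. Of the members, Orm1 had 40.2 to 427 FPKM and Serpina3n 6.42 to 96.4, but A2m had 0.525 to 1.27 in WT at 2 weeks. Saa2 had at most 0.454. At 2 weeks Alb was 0.0319 to 0.0778 FPKM in WT and 0.427 to 0.591 in Socs3 cKO. Cps1, another of the 10 hepatocyte genes, went the other way, at 0.496 to 1.16 and 0.0483 to 0.209. Other cell types moved with the genotype at 2 weeks: fibroblast markers summed to 12890 to 15120 FPKM in WT and 5253 to 7306 in Socs3 cKO, with 3 of 7 lower and 1 higher, and skeletal muscle markers to 602.2 to 915.8 and 1418 to 2802, with 3 of 5 higher. T cell markers summed to 16.05 to 23.62 and 28.68 to 48.26, with 2 of 4 higher, mast cell markers to 459.9 to 490.5 and 550.9 to 1101, with none of 5 called, and chondrocyte markers to 186.4 to 308.6 and 31.39 to 186.2, with 1 of 4 lower. At 10 weeks endothelial markers summed to 23.03 to 26.31 in WT and 42.26 to 63 in Socs3 cKO, with 3 of 6 higher, fibroblast markers to 4003 to 7005 and 7043 to 12200, with 1 of 7 higher, and skeletal muscle markers to 669 to 1143 and 332.9 to 611.9, with 1 of 5 lower. One keratinocyte marker of 6 passed at each age, Krt14 (log2(FC) 1.02) at 2 weeks and Dsg3 (3.88) at 10 weeks. The part of these cells in the members' values was not tested.

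**Figure D3:**
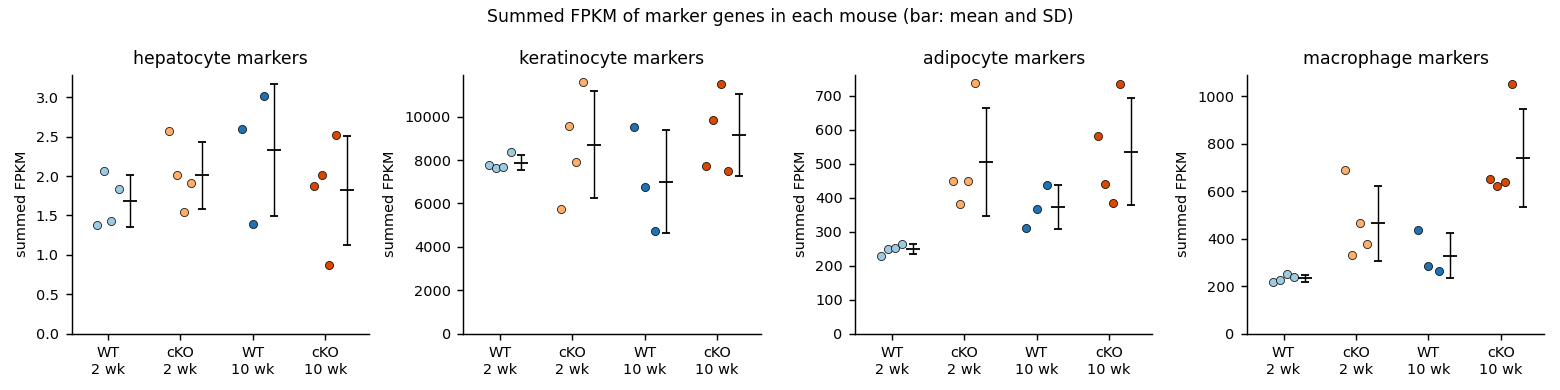
Summed FPKM of the marker genes of hepatocytes, keratinocytes, adipocytes and macrophages in each mouse (points; mean and SD beside them; linear axes). Hepatocyte markers stay at or under 3.01 in all 15 libraries, adipocyte markers are higher in Socs3 cKO at 2 weeks, and macrophage markers reach 621.7 to 1050 in Socs3 cKO at 10 weeks.

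Genes with the profile nearest to a member over the 15 mice were found by the root mean square difference of centred log2 values. Orm1 was nearest to Csta, a cystatin that inhibits cysteine proteases in keratinocytes, with a difference of 0.11, and then to Krtdap, a secreted protein of differentiating keratinocytes, at 0.27. Csta, too, was high in Socs3 cKO at 2 weeks and mixed at 10 weeks: the younger Socs3 cKO mice had 102, 46.4, 81.8 and 68.8 FPKM against 10.1 to 13.8 in WT, while at 10 weeks WT mice had 65.8, 27.2 and 26.2 and Socs3 cKO mice 33.8, 36.2, 39.6 and 55.2. C3 was nearest to Cfb, complement factor B (0.45), Cp to Inpp4b (0.28), Serpina3n to Pak3 (0.35), Lbp to Pde3b (0.17), Hp to Clcn5 (0.41) and A2m to Cyp2j12 (0.78). Among members, Serpina3n and Cp were closest (0.52). For Saa1 and Saa3 even the nearest genes were 0.69 and 1.11 away.

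The lists of related genes held 158 genes besides the members. They were drawn up with earlier results of these data known, so the counts of calls are a description of these genes. At 2 weeks 107 were tested, of which 16 were higher and 4 lower in Socs3 cKO (limma, adjusted p below 0.01 and |log2(FC)| of at least 1). Over all genes, 7.24% were higher and 7.19% lower. At 10 weeks 108 were tested, of which 47 were higher and 1 lower, against 12.5% and 2.43% of all genes. Of all calls at 10 weeks 83.7% were higher in Socs3 cKO, but 62.9% under median-of-ratios scaling, while of the related genes called 97.9% and 97.1% were. Without WT replicate 3 at 10 weeks 31 were called, and without WT replicate 1 34 were.

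Among other acute phase genes, 5 of 15 tested were higher and 2 lower at 2 weeks, and 4 of 14 were higher at 10 weeks, with medians of 0.69 and 0.96 against -0.21 and 0.31 for all genes. At 2 weeks Lcn2, the siderophore-binding lipocalin 2, rose from 1.84 ± 0.521 FPKM to 14.67 ± 1.62 (SD, n = 4 each; log2(FC) 2.96, SE 0.21, adjusted p = 7.33e-05). Fga, the fibrinogen alpha chain, was at 0 in 3 of 4 WT mice, and had 0.411, 1.08, 1.75 and 1.47 FPKM in Socs3 cKO (adjusted p = 0.000538), while Fgb and Fgg, the other chains, did not pass the filter at either age. Like Saa1, Fga passed the filter at 2 weeks only through the Socs3 cKO group, which favours a higher call. Serpina1e fell by 2.63 on the log2 scale (adjusted p = 0.00148), a call held in 9 of the 13 alternative settings (other scaling, filter or pseudocount, or 1 library left out) that could be fitted for it. Serpina1e passed the filter through the WT group alone, which favours a lower call. At 10 weeks Ptx3, a long pentraxin, rose from 3.72 ± 0.511 to 23.88 ± 6.88 FPKM (log2(FC) 2.61, adjusted p = 0.00017). Steap4, a metalloreductase (log2(FC) 1.90, adjusted p = 0.00102), and Mt2, a metallothionein (1.41, adjusted p = 0.00447, held in 10 of 16 alternatives), also rose. Crp, Apcs, Hpx, Itih3, Itih4 and Saa4, which are liver products, passed the filter at neither age.

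Of the paralogs of the members, 7 of 13 tested were higher at 2 weeks and none lower. The median was 1.11 at 2 weeks and 1.01 at 10 weeks. Orm2 went from 4.43 ± 0.648 to 25.96 ± 8.5 FPKM (log2(FC) 2.47, adjusted p = 0.000348), Serpina3b from 8.45 ± 2.44 to 66.67 ± 21.2 (2.96, adjusted p = 0.000159), and Serpina3m (2.84) and Serpina3c (2.47) rose with them. At 10 weeks Orm2 was 23.24 ± 7.88 in WT and 13.77 ± 3.26 in Socs3 cKO (adjusted p = 0.0455), which did not pass. The difference between the ages, called for 24.5% of all genes tested, did pass for Orm2 (interaction -3.20, adjusted p = 6.34e-05) and for Orm3 (-2.97, adjusted p = 5.5e-05). Both share 50-base words with Orm1, so their values may hold reads of Orm1 and are not independent of it. They are also counted among the other acute phase genes above. At 10 weeks 3 of 12 paralogs rose: Pltp, a lipid transfer protein related to Lbp (log2(FC) 1.48, adjusted p = 0.000344), Heph, a ferroxidase related to Cp (1.44, held in 11 of 16 alternatives), and Cd109, of the A2m family (1.05, held in 11 of 16).

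Of the receptors and partners of the members, 8 of 14 tested were higher at 10 weeks, none was lower and 6 did not pass, against 2 of 14 higher at 2 weeks. A further 4 genes of the list failed the filter at both ages. The median was 0.24 at 2 weeks and 1.39 at 10 weeks. Cd14, to which Lbp passes lipopolysaccharide, went from 5.29 ± 1.5 FPKM (n = 3) to 26.91 ± 7.63 (n = 4; log2(FC) 2.32, adjusted p = 0.000344). Tlr2 (1.84) and Itgam, a chain of a receptor for cleaved C3 (1.64), also rose at 10 weeks. Cd36, a scavenger receptor, was higher at both ages, by 1.66 and 1.77 (adjusted p = 0.000252 and 0.000627). Tlr4 was higher by 1.70 at 2 weeks and by 1.46 at 10 weeks, the latter held in 9 of 16 alternatives.

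Of the complement genes other than C3, 10 of 19 tested were higher at 10 weeks, none was lower and 9 did not pass, against 2 of 18 higher at 2 weeks, with medians of 1.14 and 0.29. A further 12 of the 31 genes failed the filter at both ages. Cfb, the serine protease that joins C3b in the alternative route, rose from 12.96 ± 2.31 to 47.06 ± 8.23 FPKM (log2(FC) 1.85, adjusted p = 0.000258) and had a log2(FC) of 0.21 (adjusted p = 0.481) at 2 weeks. C1ra, of the classical route, rose by 1.82 (adjusted p = 0.000453) and Masp1, of the lectin route, by 3.27 (adjusted p = 0.000565). Cfd, adipsin, a product of adipocytes, was higher at both ages, by 2.28 and 1.79, held in 10 of 17 and 8 of 16 alternatives, and at 2 weeks was highest, like Hp, in Socs3 cKO replicate 4. Hc, C6, C7, C8a, C8b and C9 of the terminal pathway passed the filter at neither age, while C8g passed it at 10 weeks and was not called. In Socs3 cKO at 10 weeks C7 still ranged from 0.0258 to 15.5 FPKM and Hc from 0.628 to 3.24. In WT at that age they had at most 0.0524 and 0.44.

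The next list held cytokines and transcription factors that induce acute phase genes, with their receptors, JAK kinases and Socs3. At 2 weeks 1 of 26 tested was higher, Il1a, from 2.58 ± 0.775 to 11.39 ± 3.03 FPKM (log2(FC) 2.11, adjusted p = 0.000921). At 10 weeks 18 of 28 were higher, Socs3 and several receptors and JAK kinases among them, and 1, Il11, was lower. The median went from -0.15 at 2 weeks to 1.23 at 10 weeks. Il6 was 0.0665 to 0.162 FPKM in WT and 0.684, 0.0684, 1.35 and 0.123 in Socs3 cKO at 2 weeks, below the filter. At 10 weeks it was 0.618, 0.0801 and 0.0696 in WT and 43.7, 42.8, 82.2 and 109 in Socs3 cKO (log2(FC) 7.84, SE 0.52, adjusted p = 2.14e-05). Il1b rose by 4.88 (adjusted p = 0.000259) and Nfkbiz, an NF-kB cofactor, by 3.67 (adjusted p = 0.000213). At 2 weeks, when A2m, Serpina3n, Cp and Orm1 were above WT in every Socs3 cKO mouse, no library had more than 1.35 FPKM of Il6. Socs3 cKO replicates 1 and 3 had more Il6 than every WT mouse of that age, and replicates 2 and 4 did not. The part of Il6 in the levels of the members was not tested.

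Proteases that the members inhibit showed 2 of 13 lower at 2 weeks and 3 of 13 higher at 10 weeks, with medians of 0.11 and 0.14. Adamts4, which cuts aggrecan, fell by 4.0 on the log2 scale at 2 weeks (adjusted p = 0.00101) and rose by 3.58 at 10 weeks (adjusted p = 0.00122). It passed the filter through WT alone at 2 weeks and through Socs3 cKO alone at 10 weeks, which favours each of these calls. Plat, the tissue plasminogen activator, fell from 14.79 ± 0.564 to 5.65 ± 0.794 FPKM at 2 weeks (adjusted p = 0.000356). Adamts1 (1.84) and Mmp2 (1.5) rose at 10 weeks. At 2 weeks cartilage and fibroblast collagens moved the same way as Adamts4, with Col2a1 at -2.89 and Col1a1 at -3.06 on the log2 scale, and their part was not tested.

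Iron-handling genes showed 2 of 14 higher at 2 weeks, Lcn2 and Trf, and 2 of 15 at 10 weeks, Steap3 and Heph, with medians of 0.23 and 0.74. Trf, transferrin, which carries the iron that Cp oxidises, rose from 26.06 ± 1.4 to 173.2 ± 74.1 FPKM at 2 weeks (log2(FC) 2.60, adjusted p = 0.000858). At 10 weeks it was 165.4 ± 55.8 in WT and 220.9 ± 68.8 in Socs3 cKO (adjusted p = 0.271), and the interaction was -2.17 (adjusted p = 0.00328). Steap3 rose by 1.51 at 10 weeks, held in 6 of 16 alternatives.

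**Figure D4:**
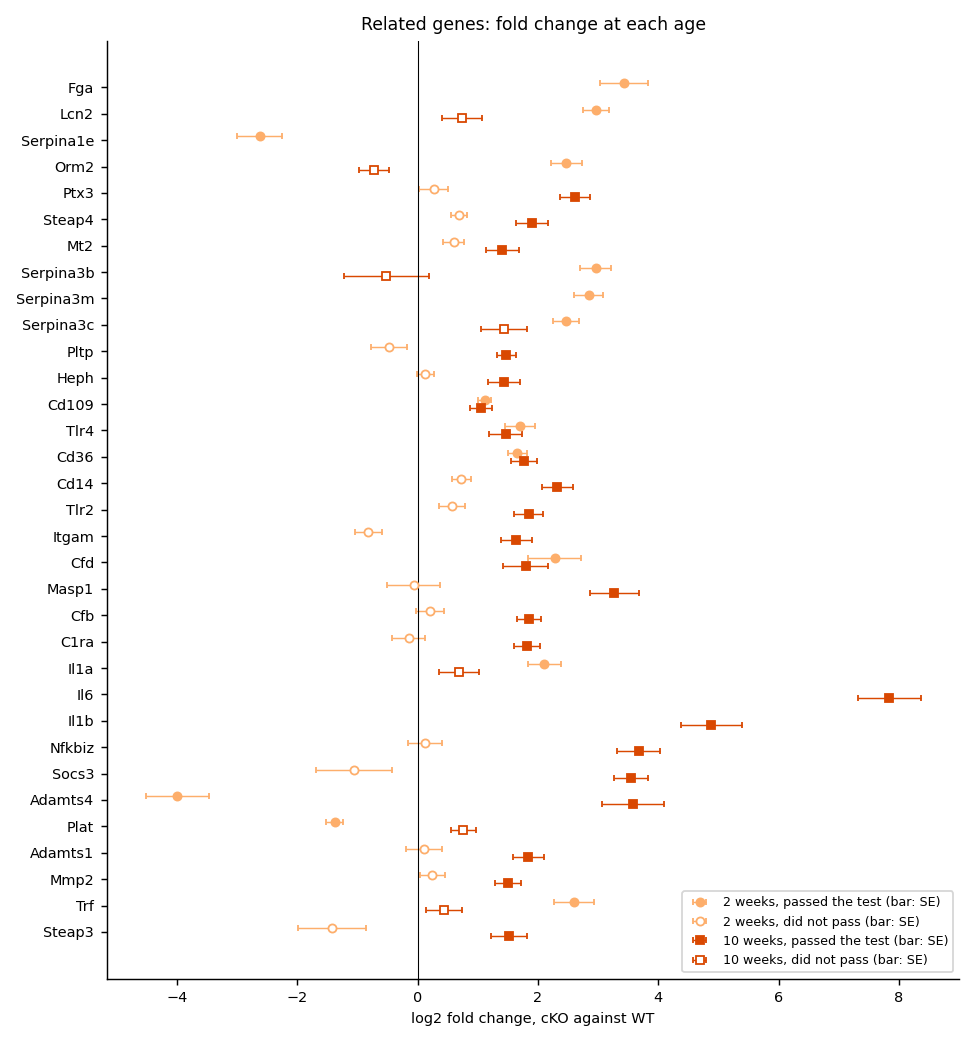
Log2 fold change of Socs3 cKO against WT (with SE) for related genes named in the text that passed the test at 1 age or both, at 2 weeks (circles) and 10 weeks (squares), filled where the test was passed; a missing point means that the gene did not pass the expression filter at that age. Il6 at 10 weeks lies farthest right, at 7.84, and Adamts4 is the gene that passed at both ages in opposite directions.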

How the data were processed

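Ear RNA of 15 mice in 4 groups, taken from the sample labels, was analysed. The authors aligned single 50-base reads to mm9 with TopHat2 (2.1.0; Cufflinks is named in the processing notes without a role) and deposited 1 FPKM value per gene. Counts were not used here. Depth was estimated from the values worth 1 read. FPKM is relative to the mapped reads and to gene length, so a library's other genes can shift it. The study's methods name 6 WT mice at 2 weeks and 4 at 10 weeks; the remaining ones were not analysed here.

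The 10 genes, the lists and the tests were chosen with earlier results of these data known. Values were tested as log2(FPKM + 0.1), on which folds of low genes are understated, with limma (3.58.1, R 4.3.3; trended prior variance, 2-sided, Benjamini-Hochberg) for each age on genes with FPKM of at least 1 in at least 3 libraries. A gene could pass this filter through 1 group alone. Saa1, Fga and Serpina3m did so at 2 weeks, and Il6 and Masp1 at 10 weeks, through Socs3 cKO. Serpina1e did so at 2 weeks through WT. Adamts4 did so at both ages, through WT at 2 weeks and Socs3 cKO at 10 weeks. The authors' thresholds of 0.01 for the adjusted p and 1 for |log2(FC)| were kept, and the interaction used all 4 groups. On simulated data with planted changes the step recovered 78 and 91 of 100 genes at log2 changes of 2 and 3 for 2 weeks (12071 genes), and 80 and 94 of 100 for 10 weeks (10888 genes). It also called 10 genes without a planted change for 2 weeks and 3 for 10 weeks. The 10 genes were named, with Socs3 and, of each list and age, up to 4 called genes with the largest change, of which 2 are not reported here; Orm3, Csta, Krtdap and genes named as not passing the filter were added after their values were seen. Alternatives were pseudocounts of 1 and 0.01, no filter, a stricter filter, a block for the replicate number, 1 fit over all groups, quantile or median-of-ratios normalization, removal of the length and GC trend, and leaving out each library. Gene positions came from a GENCODE annotation of mm9. The other calculations used Python 3.11.15, numpy 2.4.6 and pandas 2.3.3, and the figures matplotlib 3.10.9.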

Additional observations from a re-analysis of the deposited data

Results flagged for a closer look

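Single libraries lay far from the other 3 of their group (Dixon's ratio above 0.829 on the log2 scale) in 9 of 132 groups of 4 looked at, and chance marks about 1 group in 20. Among the acute phase genes this was Saa3 in Socs3 cKO replicate 2 at 2 weeks, high at 2.96 FPKM, and Saa2 in Socs3 cKO replicate 1 at 10 weeks, low at 0. Socs3 was low in WT replicate 1 at 2 weeks, at 9.71 FPKM. Fga was above 0 in WT replicate 4 at 2 weeks alone, at 0.0293 FPKM. Serpina3b was high in Socs3 cKO replicate 4 at 2 weeks, at 98.4 FPKM. Plat was low in Socs3 cKO replicate 2 at 10 weeks, at 6.81 FPKM. Socs3 cKO replicate 1 at 2 weeks was low for Adamts4, at 0, for Mmp2, at 174 FPKM, and for Steap3, at 1.79 FPKM.

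The difference between Socs3 cKO and WT was itself different at 10 than at 2 weeks for 25 related genes by the interaction term of limma (adjusted p of 2.81e-05 to 0.00736). Only genes named above were looked at, most of them named for a large change at 1 age, which favours such a difference. Of all genes tested, 24.5% were called by the same term. The log2 change at 10 weeks minus that at 2 weeks was positive for Adamts4 7.58, Il6 6.62, Il1b 4.89, Socs3 4.60, Nfkbiz 3.55, Masp1 3.34, Steap3 2.93, Itgam 2.46, Ptx3 2.35, Plat 2.14, C1ra 1.97, Pltp 1.96, Adamts1 1.73, Cfb 1.65, Cd14 1.59, Heph 1.31, Tlr2 1.27, Mmp2 1.25 and Steap4 1.21. It was negative for Serpina3b -3.48, Orm2 -3.20, Fga -3.16, Orm3 -2.97, Lcn2 -2.22 and Trf -2.17. No library at 10 weeks had more than 0.504 FPKM of Fga, and low values in WT at that age are less certain.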

How the results depend on the processing

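Genes called at 2 weeks were 1951, but 751 with the replicate block, 3300 with all 4 groups in one fit and 859 to 3348 with 1 library left out, highest without Socs3 cKO replicate 2. Genes called at 10 weeks were 1957, but 1131 with no filter and 745 to 2665 with 1 library left out, lowest without WT replicate 3. Of these, 83.7% were higher in Socs3 cKO, against 62.9% under median-of-ratios scaling and 52.7% under quantile normalization. Related genes called at 2 weeks were 20, but 13 with the replicate block and 15 to 26 with 1 library left out, and at 10 weeks 48, but 31 with no filter and 31 to 52 with 1 library left out. The interaction called 3417 genes, and 1959 to 4843 with 1 library left out; its share of positive calls was 73.3%, 52.3% under median-of-ratios scaling and 45.4% under quantile normalization. The cause of these shifts was not tested. Same-numbered libraries correlated at -0.04 to 0.14 at 2 weeks and -0.21 to 0.07 at 10 weeks, so they share only a number, and no value is read from the block.

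The log2 changes of the members moved by more than 1 SD in 15 of 276 recalculations and changed sign in 2: C3 at 2 weeks came to -0.01 without Socs3 cKO replicate 2, and Orm1 at 10 weeks to -0.01 under median-of-ratios scaling. With length and GC trends removed, Orm1 was 1.63 at 2 weeks and 0.77 at 10 weeks. Leaving out 1 library gave 0.04 to 0.60 for Orm1 at 10 weeks. With the same trends removed, Cp at 2 weeks was 1.73 and C3 was 0.91. Saa1 and Saa3 at 2 weeks ranged from 0.76 to 2.69 and from 0.80 to 3.85 with the pseudocount and scaling. Saa1 and Saa2 rested on at most 12.2 and 4.04 estimated reads in a library, which limits what could be seen of them at this depth.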
